A study of Mus musculus with 80 samples.

Results

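The arrays described here are subcutaneous white fat of high fat fed mice, ordered by the level of lipid-associated macrophage transcripts. The arrays were selected on measured levels: for each of the 38 high fat arrays Trem2, Itgax, Cd68 and Atp6v0d2 were averaged into a score, and the 12 arrays with the highest score were set against the 12 with the lowest, with 14 arrays between them, out of 80 arrays in the series. All mice were males of the BXD family, inbred lines that mix the genomes of C57BL/6J and DBA/2J, or of those parents (42 strains, of which 40 were BXD lines). Tissue of both diets was taken at 29 weeks, after the mice had fasted overnight (6 pm to 9 am), and those on high fat had eaten that diet since week 8, while the 42 chow arrays came from mice that ate chow for life. Each array held a pool of RNA from about 5 mice of 1 strain and 1 diet, so a pool stands for its strain, and the spread behind each p-value is that between strain pools. The high-score strains were BXD69, BXD98, BXD43, BXD85, BXD44, BXD55, BXD70, BXD48, BXD83, BXD71, BXD65 and BXD64. The low-score strains were DBA/2J, BXD81, BXD99, BXD90, BXD75, BXD80, C57BL/6J, BXD50, BXD95, BXD84, BXD61 and BXD63.

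Macrophages of obese fat gather around dying fat cells, take up their lipid and turn into foam cells, which are known as lipid-associated macrophages. Trem2 is a surface receptor that senses lipids, Itgax is the integrin CD11c, Cd68 is a lysosomal membrane protein, and Atp6v0d2 is a macrophage subunit of the vacuolar proton pump that acidifies lysosomes. Such cells break down lipid in lysosomes, store cholesterol as esters and secrete matrix-degrading enzymes. In a bulk tissue sample, more cells of a type and more RNA per cell cannot be told apart.

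Every array in the deposited table has mean 8 and SD 2, so a difference is in scale units of 0.5 array SD and is not a fold. The macrophage score averaged 11.523 ± 0.333 in the high-score arrays and 9.777 ± 0.404 in the low-score arrays (SD, n = 12 each), which describes the choice and is not a result. Trem2 averaged 10.328 ± 0.316 in the high-score and 9.063 ± 0.221 in the low-score arrays, and Atp6v0d2 averaged 12.016 ± 0.477 in the high-score and 9.427 ± 0.843 in the low-score arrays. The order had no wide gap at its limits. BXD64 was the last array inside the high class at 11.204, next to BXD97 outside it at 10.978, and DBA/2J was the first inside the low class at 10.262, next to BXD49 outside it at 10.405. Over the 38 arrays the 4 genes ran closely together, with pairwise correlations of 0.889 to 0.948. Leaving any of them out of the score picked the same arrays for both classes, so the fit was the same and is no separate check.

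**Figure D1:**
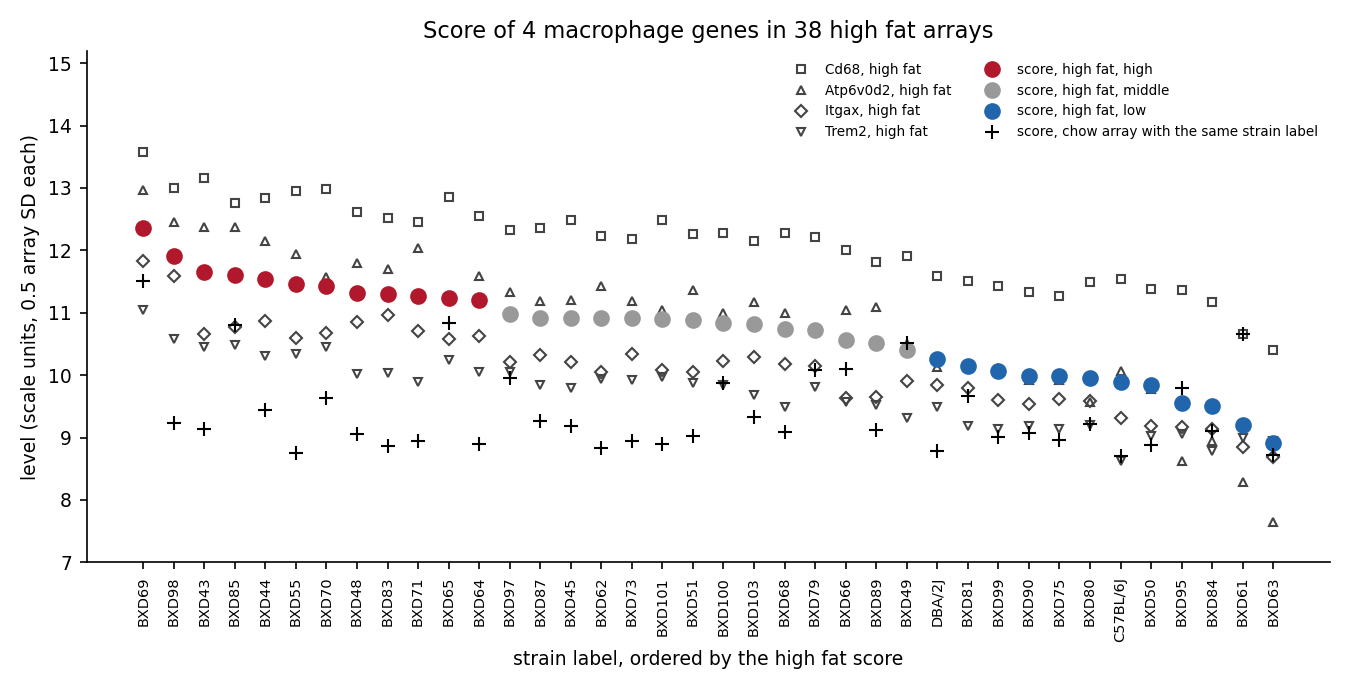
Levels of Cd68, Atp6v0d2, Itgax and Trem2 (open symbols) and their mean (filled circles, coloured by class) in the 38 high fat arrays, in scale units, with strains ordered by the score. Crosses give the score of the chow array with the same strain label, and the high-score arrays lie between 11.204 and 12.36 while the low-score arrays lie between 8.92 and 10.262.

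The low-score class holds the arrays that stand apart in the series. BXD63 had a level of Lep, the fat cell hormone leptin, of 11.634 and BXD61 of 13.476, whereas the other 36 high fat arrays were at 14.143 or above. Strain labels were checked between the diets over 100 genes whose levels form separate clusters, and 22 of 38 chow arrays correlated best with the high fat array of their own label, among them 8 of the 12 high-score and 5 of the 12 low-score strains. The comparison within high fat does not use the strain labels, but every comparison with chow does, and those are given with and without the other strains. Skeletal muscle transcripts ran unevenly, with list means of 8.741 to 11.12 in the high-score arrays and 8.807 to 13.322 in the low-score arrays. Keratinocyte and epithelial markers ranged from 7.538 to 8.093 in the high-score arrays and from 7.465 to 7.777 in the low-score arrays.

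The comparison of high-score with low-score arrays asks which other transcripts of the fat depot go with the level of these macrophages on the same diet. Genes of macrophages that were higher included matrix metalloproteinase 12, lysosomal enzymes, complement and Fc receptors, and chemokines. Matrix, cell cycle and mast cell genes were among the others, and of the named genes past the threshold the widest margins in the lower direction were those of mitochondrial tRNAs, Acsm3 and Cfd. In limma's test with p adjusted by Benjamini-Hochberg, 2544 of 38823 genes (6.55%) passed an adjusted p of 0.05, of which 1754 (4.52%) were higher and 790 (2.03%) lower in the high-score arrays. Since the arrays were ordered by macrophage genes measured on the same RNA, transcripts that run with those genes differ by the way the classes were made. With a difference of at least 0.5 units as a further condition, 395 genes (1.02%) were higher and 102 (0.263%) lower. The 2 classes did not overlap for 211 genes (0.543%), of which 210 were higher (0.541%) and 1, the predicted model Gm22659, was lower (0.00258%). Without BXD61 and BXD63, a choice made after seeing the data, 1243 genes were higher and 424 lower, and with the mean of the mitochondrial tRNAs as a covariate, also added later, 319 were higher and 35 lower. Calls thus fell over all 38823 genes with that covariate, so a lower count in a list does not by itself show a smaller difference.

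Of the genes that were higher, Mmp12, macrophage elastase, differed most. It ranged from 10.09 through a median of 10.895 to 11.764 in the high-score arrays, against 7.446, 8.628 and 9.657 for the lowest, median and highest of the low-score arrays. Every high-score array was above every low-score array, and the difference was 2.24 units (SE 0.238, limma adjusted p = 6.25e-07). Tm4sf19, a tetraspan membrane protein of macrophages and osteoclasts, was at 10.593 to 12.253 (median 11.201) in the high-score and 8.011 to 9.885 (median 9.29) in the low-score arrays. Its classes were also apart, with a difference of 2.05 units (SE 0.205, limma adjusted p = 3.18e-07).

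The remaining genes with the widest differences are receptors and enzymes of myeloid cells. Tlr13, a receptor for bacterial ribosomal RNA, was higher by 1.77 units, Clec7a, the beta-glucan receptor dectin-1, by 1.68, and Dhrs9, a retinol dehydrogenase, by 1.64. Hpgds, the haematopoietic prostaglandin D synthase, had 10.31, 10.574 and 11.544 as its lowest, median and highest level in the high-score arrays, against 8.293, 9.102 and 9.454 in the low-score arrays. Its SE of 0.124 for a difference of 1.59 units gave one of the smallest adjusted p-values in limma's test, 5.57e-08. The classes were apart for each of Tlr13, Clec7a, Dhrs9 and Hpgds. Rgs1, a regulator of chemokine receptor signalling, was higher by 1.56 units and C3ar1, the receptor for complement C3a, by 1.55. The inhibitory receptor Lilrb4 (1.56 units) and its near-identical relative Gp49a (1.61 units) may share probe signal and are uncertain as separate genes. Igsf6, a surface protein of myeloid cells, and Ms4a14, a relative of Ms4a7, were higher by 1.48 and 1.47 units with overlapping classes.

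**Figure D2:**
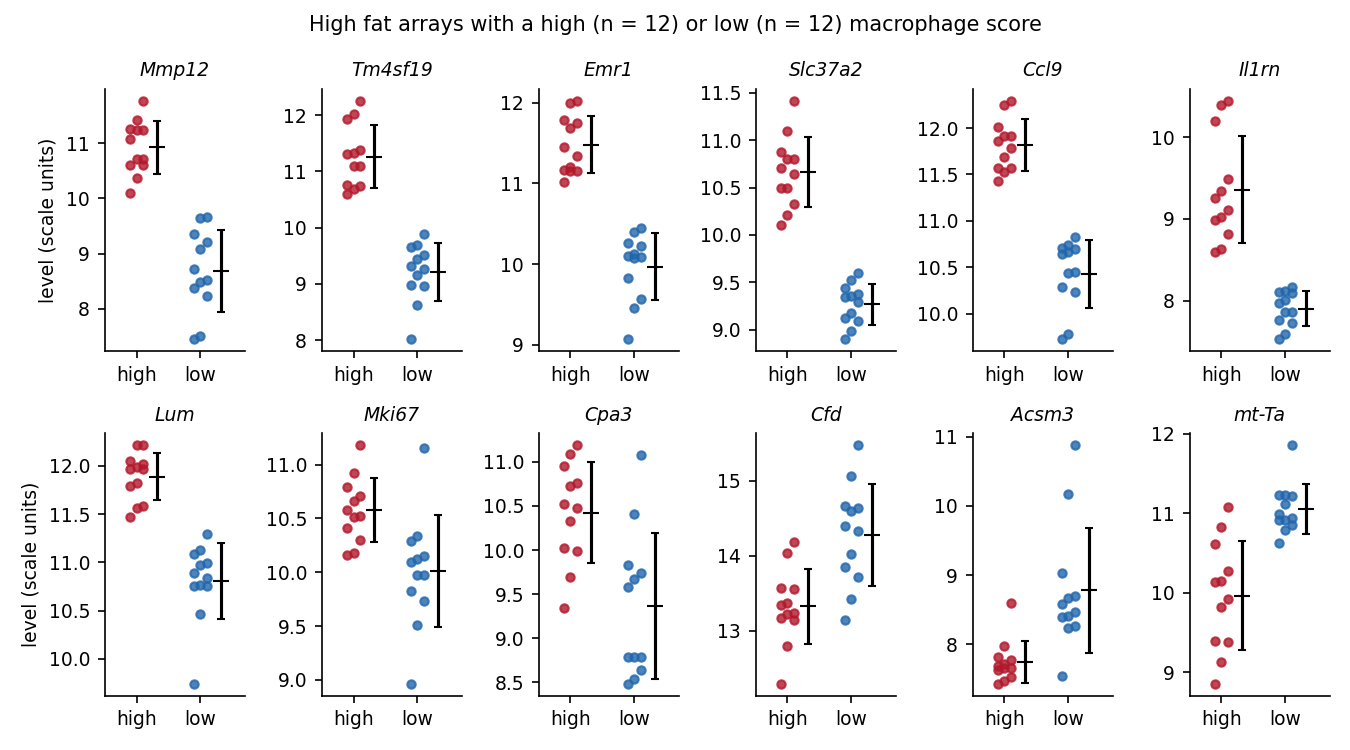
Levels of 12 genes in scale units in the high-score (red, n = 12) and low-score (blue, n = 12) high fat arrays, each point 1 array, with the mean and SD beside the points. The classes are apart for Mmp12, Tm4sf19, Emr1, Slc37a2, Ccl9, Il1rn and Lum, and overlap for Mki67, Cpa3, Cfd, Acsm3 and mt-Ta.

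Among 28 other markers of lipid-associated macrophages, 18 were higher and none lower, with a median difference of 0.445 units against -0.013 over all genes. The mean of the list was 11.649 to 12.16 in the high-score arrays and 10.919 to 11.324 in the low-score arrays, with no overlap. Cd9, a tetraspanin, was at 10.372, 10.548 and 11.102 (lowest, median, highest) in the high-score arrays and at 9.577, 9.91 and 10.095 in the low-score arrays, a difference of 0.77 units (limma adjusted p = 5.6e-07). Lgals3, the lectin galectin-3, was higher by 0.78 units, also with classes apart. Spp1, the secreted protein osteopontin, was at 8.657 to 10.46 in the high-score and 8.173 to 9.334 in the low-score arrays, and its difference of 0.66 units passed the test with overlapping classes (limma adjusted p = 0.0218). With the mitochondrial tRNA covariate 12 of the 28 stayed past the threshold, with a median of 0.433 units.

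Gpnmb, a glycoprotein of lysosomes and a main transcript of these cells, was higher by 1.54 units but with an SE of 0.44 (limma adjusted p = 0.0332). Its levels were 10.384, 12.204 and 14.155 in the high-score arrays and 8.893, 10.547 and 11.553 in the low-score arrays, so only 7 of the 12 high-score arrays were above all low-score arrays. Within the high-score class, BXD98, BXD43, BXD85, BXD44 and BXD55 lay between 10.384 and 10.851, and the other 7 arrays lay between 11.882 and 14.155. The parents differed, with 9.141 in DBA/2J and 10.686 in C57BL/6J, 1 array each. Trim12a, a TRIM family gene picked out after its values were seen, did run in clusters, with no array between 8.267 and 9.607. It was above 9 in 12 of 12 high-score, 8 of 14 middle and 5 of 12 low-score arrays (difference 1.24 units, limma adjusted p = 0.0228), and the related Trim30d differed by 1.24 units (limma adjusted p = 0.00253). Whether the strains' genotype at these genes has a part in the score was not tested.

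**Figure D3:**
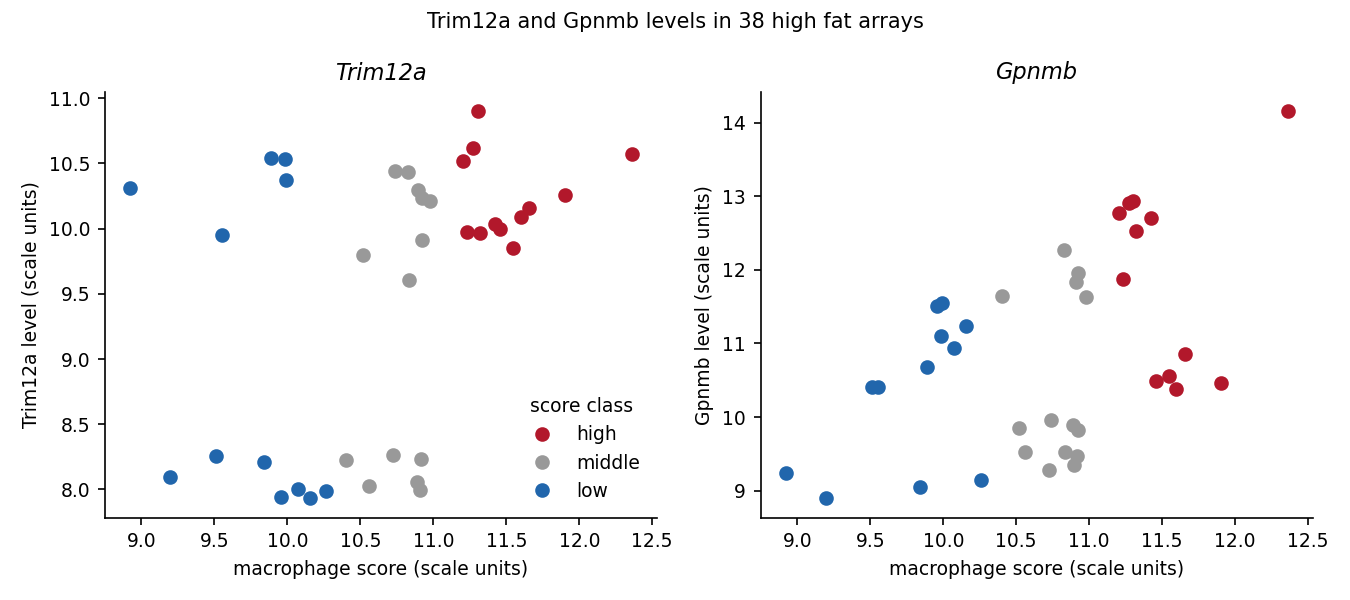
Levels of Trim12a (left) and Gpnmb (right) in scale units against the macrophage score in the 38 high fat arrays, coloured by class. All 12 high-score arrays are in the upper Trim12a cluster. The high-score arrays fall into a lower Gpnmb group of 5 and an upper group of 7, with arrays of the other classes at levels between them.

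Markers of tissue macrophages were higher in 17 of 24 cases and lower in none, with a median of 0.673 units. Emr1, the pan-macrophage marker F4/80, was at 11.023, 11.4 and 12.022 in the high-score arrays, against 9.067, 10.098 and 10.45 in the low-score arrays. The classes were apart and the difference was 1.51 units (SE 0.148, limma adjusted p = 2.57e-07). Ms4a7, a membrane protein of macrophages, and Itgam, the integrin CD11b, were higher by 1.33 and 1.12 units with classes apart. Mrc1, the mannose receptor CD206 of resident macrophages, was at 12.434 to 13.049 in the high-score and 11.049 to 12.725 in the low-score arrays and was higher by 0.87 units with overlap. Lyve1, a hyaluronan receptor of perivascular macrophages and lymph vessels, differed by 0.40 units (SE 0.202) and did not pass the test (limma adjusted p = 0.273). Timd4 and Cd163, further receptors of resident macrophages named after their values were seen, differed by -0.25 and 0.03 units and did not pass either. Of 12 markers of recruited monocytes 3 were higher, the adhesion molecule Cd44 (0.81 units), fibronectin Fn1 (0.55) and the calcium-binding S100a4 (0.38).

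Lysosomal genes moved as a broad group. Of 36 lysosomal enzymes, membrane proteins and proton pump subunits other than Atp6v0d2, 26 were higher and none lower, all 36 differences were above 0, and the median was 0.354 units. Slc37a2, a sugar phosphate transporter of macrophages, was at 10.108, 10.676 and 11.415 in the high-score arrays, against 8.897, 9.322 and 9.602 in the low-score arrays. The cysteine protease Ctss was at 13.061 to 14.122 in the high-score and 11.914 to 12.857 in the low-score arrays. The classes were apart for both, as they were for Man2b1, lysosomal alpha-mannosidase, and the differences were 1.40, 1.08 and 0.72 units (limma adjusted p at most 2.14e-05). With the mitochondrial tRNA covariate 14 of the 36 remained called, with a median of 0.309 units.

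Promoters of lysosomal genes are known to carry a short element read by TFEB and related factors, and the core searched here was GTCACGTG on either strand. Windows ran from 250 bases before to 50 bases after each gene's start, from RefSeq on GRCm38.p6, and 27 of the 36 lysosomal genes had one. The core was found in 5 of these 27 (18.5%), against 572 of 18223 tested genes with a window (3.1%). Among the lysosomal genes that were higher it stood upstream of the start in 3, whose 60 bases around it are shown with the core in capitals as examples, since 3 of the 20 higher genes with a window held it. Ctsa encodes the protease cathepsin A (chr2:164833713-164833772, plus strand), Atp6v0b a membrane subunit of the proton pump (chr4:117887334-117887393, minus strand) and Lamp1 a main lysosomal membrane protein (chr8:13159101-13159160, plus strand).
Ctsa: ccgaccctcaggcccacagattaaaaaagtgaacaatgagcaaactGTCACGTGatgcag
Atp6v0b: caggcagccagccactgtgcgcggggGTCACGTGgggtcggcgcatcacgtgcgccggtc
Lamp1: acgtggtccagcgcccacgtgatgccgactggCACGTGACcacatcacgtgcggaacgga
Ctsa was higher by 0.53 units with classes apart, and Atp6v0b and Lamp1 by 0.28 and 0.24 units with overlap.

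The factor PU.1, encoded by Spi1, directs macrophage genes, and Spi1 itself, named after its values were seen, was at 10.997 to 11.797 in the high-score and 10.278 to 10.823 in the low-score arrays. The classes were apart, and the difference was 0.70 units (limma adjusted p = 4.72e-07). A PU.1-type motif, GAGGAAGT on either strand, was found in 20 of 147 windows (13.6%) of higher genes whose classes were apart, in 74 of 1149 (6.4%) of all higher genes and in 648 of 18223 (3.6%) of all tested genes. Several of these windows belong to near-identical receptor genes of 1 cluster, such as Pirb and Pira1. A match is a string of letters and not a binding site. The stretches of Mmp12 (chr9:7344283-7344342, plus strand), Hpgds (chr6:65144746-65144805, minus strand) and Nceh1, which encodes a cholesterol ester hydrolase (chr3:27182905-27182964, plus strand), are shown with the motif in capitals, since these genes were among those with the clearest differences.
Mmp12: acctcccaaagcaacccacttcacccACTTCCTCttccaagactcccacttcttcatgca
Hpgds: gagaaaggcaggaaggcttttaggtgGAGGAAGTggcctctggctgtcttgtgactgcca
Nceh1: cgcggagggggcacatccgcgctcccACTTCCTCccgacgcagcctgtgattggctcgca
Nceh1, like Mmp12 and Hpgds, had its classes apart, with 9.217 to 10.405 in the high-score and 8.28 to 8.711 in the low-score arrays.

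Genes for lipid handling of foam cells were higher in 6 of 15 cases. Msr1, a scavenger receptor for modified lipoprotein, was at 9.359 to 10.456 in the high-score and 7.841 to 9.003 in the low-score arrays. Soat1, which esterifies cholesterol, was at 10.868 to 12.119 in the high-score and 9.765 to 10.456 in the low-score arrays. Both had classes apart, with differences of 1.26 and 1.17 units, and Olr1, another lipoprotein receptor, was higher by 1.09 units with overlap. Of 23 cholesterol synthesis genes only Dhcr7, the last enzyme of the pathway, was higher (0.30 units, limma adjusted p = 0.0321). With the mitochondrial tRNA covariate 2 of the 15 foam cell genes and none of the cholesterol synthesis genes were called. The medians were 0.22 units with it and 0.2 without it for foam cell genes, and 0.026 and 0.135 for cholesterol synthesis genes.

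Chemokines and their receptors were higher in 12 of 22 cases. Ccl9, a CC chemokine of macrophages, was at 11.427, 11.824 and 12.293 in the high-score arrays, against 9.721, 10.542 and 10.826 in the low-score arrays. The classes were apart, with a difference of 1.39 units (SE 0.126, limma adjusted p = 1.05e-07). Ccl2, which recruits monocytes, was at 9.518 to 11.051 in the high-score and 9.091 to 9.891 in the low-score arrays, with overlap and a difference of 0.60 units (limma adjusted p = 0.00238). Of 15 Fc receptor and complement genes 11 were higher, led by C3ar1, the Fc receptor gamma chain Fcer1g (1.28 units) and the C5a receptor C5ar1 (1.20). Of 26 cytokines and inflammatory mediators 10 were higher. With the mitochondrial tRNA covariate 6 of the 22 chemokine genes, 5 of the 15 Fc receptor and complement genes and 4 of the 26 mediators were called. Their medians were 0.297, 0.29 and 0.082 units with it, against 0.323, 0.361 and 0.143 without it. Il1rn, the natural antagonist of interleukin-1, was at 8.599, 9.18 and 10.443 in the high-score arrays, against 7.525, 7.918 and 8.172 in the low-score arrays, with no overlap and a difference of 1.46 units. Tlr8, an RNA sensor, and the siderophore-binding lipocalin Lcn2 were higher by 1.44 and 0.93 units. Oxidative stress and iron genes were higher in 8 of 24 cases, among them the iron transporter Slc11a1 (0.98 units), the oxidase subunit Cybb (0.92) and the haem oxygenase Hmox1 (0.78), each with classes apart.

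Other immune cells followed in part. Mast cell proteases were higher: carboxypeptidase Cpa3 was at 9.344, 10.497 and 11.19 in the high-score arrays and at 8.482, 9.185 and 11.079 in the low-score arrays, and its difference of 1.06 units passed the test with overlap (limma adjusted p = 0.016). Mcpt4 and Tpsb2, a chymase and a tryptase, were higher by 0.90 and 0.61 units. Of 15 mast cell and eosinophil markers 5 were called (median 0.128), against none with the mitochondrial tRNA covariate (median 0.115). Of 13 neutrophil markers S100a8 (1.06 units, overlapping) and Csf3r (0.30 units, apart) were higher. None of 18 antigen presentation and dendritic cell genes was called, with a median of 0.076, while 9 were higher once the means of the muscle, lymph node and epithelial lists entered the fit as covariates. In that fit 1889 of all 38823 genes were higher. Of 21 T and NK cell markers the T cell receptor subunit Cd3d (-0.66 units) and the adaptor Lat (-0.54) were lower. Cd3d was at 8.018 to 9.356 in the high-score and 8.443 to 10.244 in the low-score arrays. The count depended on the setting, with 12 of the 21 lower for the 8 highest against the 8 lowest arrays and none without BXD61 and BXD63. Of all 38823 genes 446 were lower with 8 arrays a class and 424 without BXD61 and BXD63. None of 21 is near that last share, and the median of the 21 was then -0.186 units, against -0.247 in the main fit. B cell and lymph node markers had a median of -0.589 units, and only the plasma cell marker Sdc1 passed, as higher (0.21 units). For the 8 highest against the 8 lowest arrays the median was -1.02 and 6 of the 18 were lower, beside the 446 of all genes. The list mean of those markers spread from 8.372 to 11.3 in the high-score and from 8.394 to 10.698 in the low-score arrays, so these markers varied widely within both classes.

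**Figure D4:**
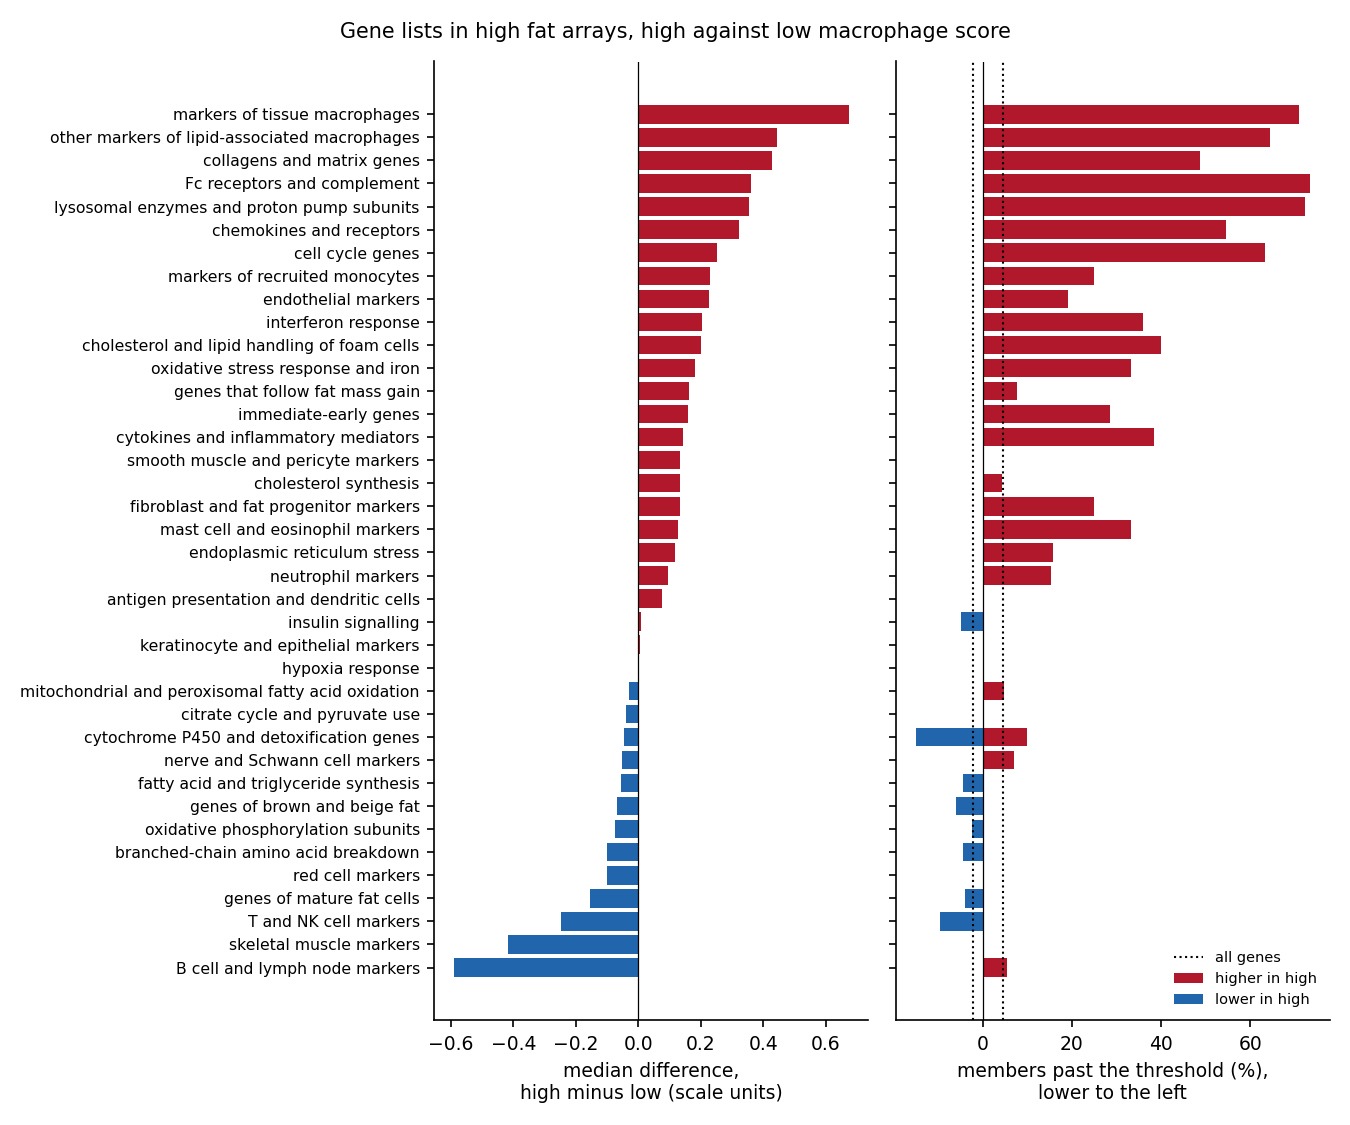
Median difference, high-score minus low-score high fat arrays, in scale units (left) and the percentage of members called higher (red, right of 0) or lower (blue, left of 0) for 38 gene lists, with dotted lines at the 4.52% and 2.03% of all genes. Macrophage, Fc receptor, lysosomal, cell cycle and chemokine lists have more than 50% of their members called higher, and the B cell, muscle and T cell lists have the lowest medians.

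Matrix genes were higher in 19 of 39 cases and lower in none, with all 39 differences above 0 and a median of 0.429 units. Lum, the collagen-binding proteoglycan lumican, was at 11.472, 11.968 and 12.213 in the high-score arrays, against 9.742, 10.86 and 11.29 in the low-score arrays. It is a fibroblast gene, and its classes were apart (1.08 units, SE 0.128, limma adjusted p = 2.57e-06). Postn, the matricellular protein periostin, and Mmp3, stromelysin, were higher by 0.98 and 0.94 units with slight overlap. Col1a1 and Col6a3, chains of fibrillar and microfibrillar collagen, were higher by 0.50 and 0.51 units (limma adjusted p = 0.00292 and 0.008). Of 20 fibroblast and progenitor markers 5 were higher, with Fap, a surface protease of activated fibroblasts, Pdgfrb, a growth factor receptor, and Cd34 ahead (0.53, 0.52 and 0.41 units). With the mitochondrial tRNA covariate 7 of the 39 matrix genes and none of the 20 markers were called. The medians were then 0.38 units for the matrix genes and 0.065 for the markers, against 0.429 and 0.134 without it.

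Cell cycle genes were higher in 19 of 30 cases, with all 30 differences above 0 and a median of 0.251 units. The mitotic kinesin Kif11 was at 8.202 to 9.331 in the high-score and 7.281 to 8.811 in the low-score arrays. Mki67, the proliferation marker, was at 10.164, 10.55 and 11.18 in the high-score and at 8.964, 10.036 and 11.157 in the low-score arrays. The classes overlapped for both, with differences of 0.57 units each, and the spindle factor Tpx2 was higher by 0.47. None of the 30 was called with 19 arrays a class (median 0.073), nor with the mitochondrial tRNA covariate (median 0.195). Over all 38823 genes the higher calls fell from 1754 to 749 with 19 arrays a class and to 319 with the covariate. Counts of 0 in those fits, for this list and the next ones, thus do not by themselves show smaller differences. Interferon response genes were higher in 9 of 25 cases, with Xaf1, Oas2 and Oasl2, all induced by interferon, at 0.60, 0.57 and 0.56 units. Again none was called with that covariate, where the median was 0.178 units against 0.204 without it. Of 21 immediate-early genes 6 were higher. Atf3, a stress-induced transcription factor, was at 10.305 to 11.357 in the high-score and 9.281 to 10.244 in the low-score arrays, a difference of 1.02 units with classes apart. Fos and Dusp1, both induced within minutes of a stimulus, were higher by 0.81 and 0.62 units with overlap. Smaller sets included 4 of 21 endothelial markers, led by Emcn, Sox17 and Pecam1 (0.38, 0.29 and 0.28 units), and 3 of 19 endoplasmic reticulum stress genes, the chaperones Hspa5, Calr and Canx (0.32, 0.23 and 0.20 units). None of these endothelial and stress genes was called with 19 arrays a class (medians 0.099 and 0.054) or with the tRNA covariate (0.169 and 0.085). The medians in the main fit were 0.226 and 0.118.

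Of 25 genes of mature fat cells only Cfd, the adipokine adipsin, was called, as lower. It was at 12.291, 13.287 and 14.177 in the high-score arrays, against 13.142, 14.362 and 15.475 in the low-score arrays, with overlap and a difference of -0.95 units (SE 0.227, limma adjusted p = 0.0101). BXD63 at 15.475 and BXD61 at 15.064, the arrays with the lowest Lep, had the highest Cfd levels of the low-score class. With the means of the muscle, lymph node and epithelial lists as covariates, 8 of the 25 were lower, as were 1224 of all 38823 genes. Adiponectin, Adipoq, was at 12.755 to 13.36 in the high-score and 12.947 to 13.516 in the low-score arrays, and its difference of -0.15 units did not pass (limma adjusted p = 0.188). Lep differed by 0.44 units and the adipogenic factor Pparg by 0.11, neither past the threshold (limma adjusted p = 0.349 and 0.641), and without BXD63 alone the Lep difference was 0.20 units. Fasn, fatty acid synthase, was at 12.951 to 14.415 in the high-score and 12.178 to 15.014 in the low-score arrays and did not pass (-0.11 units, limma adjusted p = 0.848). Ucp1, the uncoupling protein of thermogenic fat, ran from 8.027 to 12.467 in the high-score and from 7.111 to 13.406 in the low-score arrays (1.11 units, SE 0.633, limma adjusted p = 0.35).

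Named genes that were lower, apart from small RNAs and Cfd, were few. Acsm3, a mitochondrial medium-chain acyl-CoA synthetase, was at 7.429, 7.672 and 8.592 in the high-score arrays, against 7.546, 8.521 and 10.878 in the low-score arrays. The difference was -1.04 units (SE 0.257, limma adjusted p = 0.0131), and the low-score class held a tail of high values. At its end were BXD63 at 10.878 and BXD61 at 10.168, the arrays with the lowest Lep. Pon1, paraoxonase, and Amy2b, a pancreatic-type amylase, were lower by a difference of -0.79 and -0.77 units, and Ltb, the lymphoid cytokine lymphotoxin beta, by -0.81. Cyp2e1, a cytochrome P450, was at 9.419, 11.436 and 13.359 in the high-score and at 10.547, 12.968 and 15.092 in the low-score arrays, and its difference of -1.71 units (SE 0.537) missed the threshold (limma adjusted p = 0.0553). Of 20 P450 and detoxification genes 3 were lower, among them the carboxylesterase Ces1d (-0.55 units), and 2 were higher, with Cyp1b1, a P450 of stromal cells, at 0.64 units.

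In other metabolic lists single genes passed, each named here after its values were seen. Pck1, which makes glycerol for triglyceride, was lower by a difference of -0.67 units among 23 lipid synthesis genes. Others were Pde3b, the insulin-regulated phosphodiesterase (-0.30 units, 1 of 21 insulin signalling genes), Mccc2 of leucine breakdown (-0.30 units, 1 of 23), the complex I subunit Ndufa5 (-0.23 units, 1 of 43 oxidative phosphorylation genes) and Tbx1 (-0.19 units, 1 of 17 genes of brown and beige fat). Cpt1a, which brings fatty acids into mitochondria, was higher by 0.40 units, as 1 of 21 oxidation genes, and Mmp2, a gelatinase, by 0.66 units, as 1 of 13 genes that follow fat mass gain. The myelin gene Pmp22 was higher by 0.31 units, as 1 of 14 nerve markers. None of 20 citrate cycle, 18 hypoxia, 12 smooth muscle, 20 skeletal muscle, 19 keratinocyte and 7 red cell genes was called. With the muscle, lymph node and epithelial means as covariates 9 of the 43 oxidative phosphorylation and 5 of the 21 oxidation genes were lower, as were 1224 of all 38823 genes. In the fit without covariates, counts of 0 or 1 in lists of this size are close to the 4.52% and 2.03% of all genes.

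Mitochondrial tRNAs, grouped after their values were seen, leaned in the lower direction. Of 18 tested, 13 were lower and none higher, with a median of -0.758 units. With 8 arrays a class 1 of the 18 was lower (median -0.656), and with 19 a class none was (median -0.385). Of all 38823 genes 790 were lower in the main fit, 446 with 8 arrays a class and 29 with 19. The lower counts thus do not by themselves show a smaller difference in these tRNAs. The mean of the 18 was 10.664, 11.371 and 12.125 in the high-score arrays, against 11.762, 11.932 and 12.608 in the low-score arrays, and 10.877, 11.837 and 12.257 in the arrays between. All but 2 of the high-score arrays, BXD44 and BXD43, lay below every low-score array. mt-Ta, the alanine tRNA, was at 8.853, 10.029 and 11.083 in the high-score and at 10.625, 10.961 and 11.856 in the low-score arrays (-1.09 units, SE 0.204, limma adjusted p = 0.0011). mt-Ts2, mt-Ts1, mt-Tq and mt-Tn, for serine, glutamine and asparagine, differed by -1.09, -1.03, -0.96 and -0.92 units. mt-Tr, mt-Tf, mt-Tt and mt-Th, for arginine, phenylalanine, threonine and histidine, differed by -0.88, -0.87, -0.83 and -0.80 units. Both mitochondrial ribosomal RNAs were not called (median -0.096).

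Nuclear small RNAs were counted likewise. Of 15 spliceosomal and U3 RNAs 8 were lower, including Rnu3a, a U3 RNA of ribosome assembly (-0.81 units), and of 21 H/ACA small nucleolar RNAs 10, of 51 C/D ones 6, of 9 Cajal body RNAs 5 and of 178 5S ribosomal RNA features 13 were lower. Among all of these, 1 feature, of 5S RNA, was higher. The counts depended on the setting. None of the small nucleolar RNAs was lower with 19 arrays a class, and the 5S count was 0 with 8 or 19 arrays a class, with Lep as a covariate or without BXD61 and BXD63, but 104 with the muscle, lymph node and epithelial means as covariates. With those means 1224 of all 38823 genes were lower. Over all genes the lower calls were 446 with 8 and 29 with 19 arrays a class. They were 375 with Lep and 424 without BXD61 and BXD63, against 790 in the main fit. A count of 0 in these settings thus does not by itself show a smaller difference. No measure of RNA quality is given per array, and the part of RNA handling in these differences was not tested. With the mitochondrial tRNA mean in the fit, 186 of the 210 genes with separate classes were still higher, but these were picked for their separation in the same arrays. Of 24 tissue macrophage markers 10 were higher, with a median of 0.569 units. No mitochondrial tRNA was called, which follows from having their own mean in the fit.

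**Figure D5:**
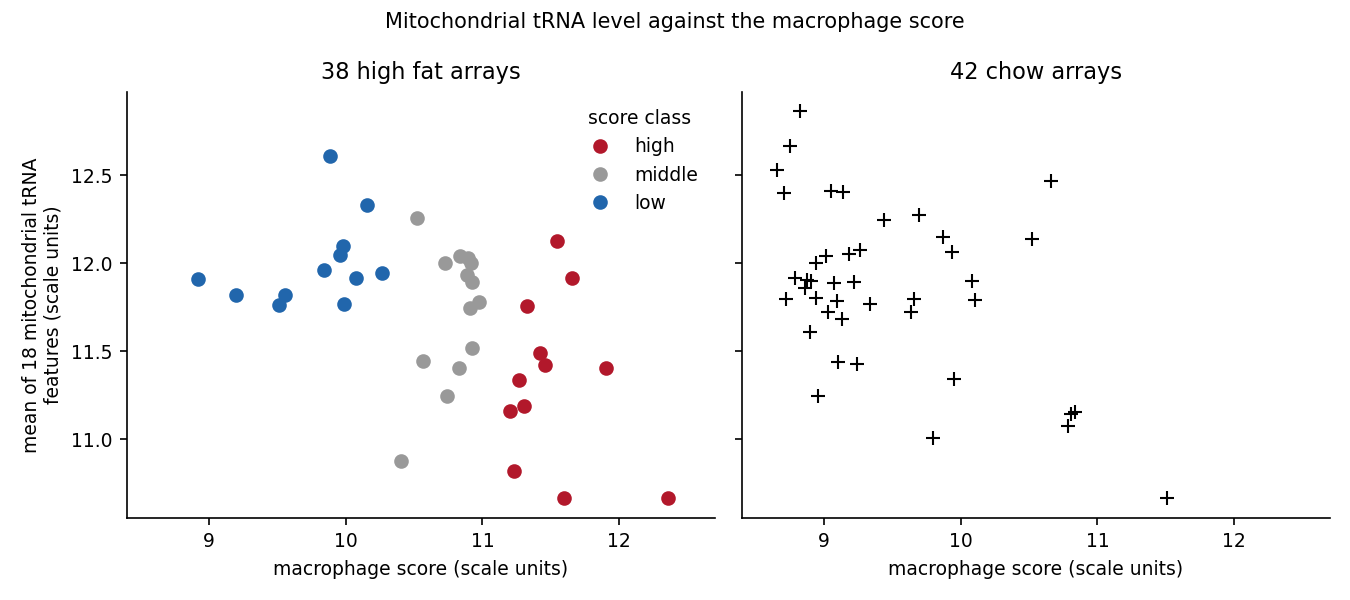
Mean level of 18 mitochondrial tRNA features in scale units against the macrophage score, in 38 high fat arrays coloured by class (left) and in 42 chow arrays (right). High-score arrays reach down to 10.664 whereas no low-score array is below 11.762, and the chow arrays show a correlation of -0.49.

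The 14 arrays between the classes took no part in the comparison and give a description of how far the differences are graded. Their mean lay between the class means for all 210 genes with separate classes, for 98.5% of the higher genes and for 90.4% of the lower genes, against 49.1% of all genes. The choice of genes by class difference and of arrays by a middle score favours this outcome. Within the 14 arrays, over a score range of 10.405 to 10.978, 87.1% of the 210 genes had a positive correlation with the score. Only 51.6% of all 1754 higher genes did, against 55.4% of all genes. Of the 790 lower genes 87.7% had a positive correlation there, the opposite of their direction between the classes. Mmp12 ranged from 9.266 to 10.641 in the middle arrays and Emr1 from 10.313 to 11.402, and both thus reached from the low-score into the high-score range.

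The chow arrays of the same strain labels ask whether the strains already differ without the high fat diet. No gene of 38827 was called (0.0%, smallest limma adjusted p = 0.807), and 2071 genes (5.33%) had an unadjusted limma p under 0.05. On chow the score was 9.590 ± 0.929 in the strains with a high score on high fat and 9.214 ± 0.569 in those with a low score (SD, n = 12 each), a difference of 0.376 units (two-sided permutation test, p = 0.247). In the strains whose arrays matched between diets, 8 high-score and 5 low-score, the difference was 0.483 units (two-sided exact permutation test, p = 0.376), and again no gene was called. Across 38 strain labels the scores on the 2 diets had a Pearson's r of 0.221 (permutation p = 0.18, adjusted 0.27) and a Spearman's rho of 0.173 (permutation p = 0.299, adjusted 0.299), with an r of 0.317 without the 2 farthest arrays. In the 22 matched strains r was 0.195 and rho 0.267 (permutation p = 0.385 and 0.229, adjusted 0.385 and 0.299), with an r of 0.185 without the 2 farthest.

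The directions on chow were nonetheless not evenly split. Of the 1754 genes higher on high fat 86.6% had a difference above 0 on chow, and of the 210 genes with separate classes 98.1%, against 41.3% of all genes, while of the 790 lower genes 9.2% did. In the matched strains, 8 high-score and 5 low-score, the shares were 95.6% of the higher genes, 99.0% of the 210 and 4.1% of the lower genes, against 45.3% of all genes. Genes that run together across arrays are counted singly here, so the counts are not independent. The shares count differences of means, which single arrays can move. BXD69, the top array on high fat, also had the highest chow score, 11.506, and BXD65 and BXD85 were at 10.832 and 10.806. The median chow score was 9.187 in the high-score and 9.042 in the low-score strains. Medians of list means on chow were 10.055 against 10.139 for tissue macrophage markers and 10.987 against 11.076 for lysosomal genes. For the other lipid-associated macrophage markers they were 11.03 against 10.967. Mmp12 on chow was at 7.377, 8.59 and 12.065 in the high-score strains and at 7.175, 7.864 and 10.611 in the low-score strains, a difference of 0.68 units (SE 0.565) with wide overlap, and of 0.90 units in the matched strains. Sox17, a transcription factor of arterial endothelium, was at 8.962 to 9.479 on chow in the high-score strains and 8.601 to 9.167 in the low-score strains, a difference of 0.21 units whose unadjusted limma p of 0.00163 did not survive adjustment, and of 0.29 units in the matched strains. Across all 42 chow arrays the score and the mitochondrial tRNA mean had a Pearson's r of -0.49 (permutation p = 0.001, adjusted 0.003) and a Spearman's rho of -0.353 (permutation p = 0.0219, adjusted 0.0657), and r was -0.31 without the 2 farthest arrays. The 3 relations were adjusted together.

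The last comparison sets the change from chow to high fat within a strain label in the high-score strains against that in the low-score strains. It shares its high fat arrays with the first comparison, which chose the classes. With the strain as a block, limma called 305 of 38823 genes (0.786%), 295 with a more positive change in the high-score strains (0.76%) and 10 with a more negative one (0.0258%). Tm4sf19 stood at 11.264 on high fat and 8.642 on chow in the high-score strains, and at 9.209 on high fat and 8.394 on chow in the low-score strains, as means of 12 arrays. Its change was thus larger by 1.81 units (SE 0.365, limma adjusted p = 0.0125). Emr1 changed more by 1.35 units and Hpgds by 1.30 (limma adjusted p = 0.0129 and 0.00146), whereas Mmp12, with its spread on chow, did not pass (1.56 units, SE 0.579, limma adjusted p = 0.305). mt-Ta stood at 9.962 on high fat and 10.759 on chow in the high-score strains, and at 11.055 on high fat and 10.74 on chow in the low-score strains (-1.11 units, limma adjusted p = 0.00413). Of the lists, 12 of 24 tissue macrophage markers, 10 of 28 other lipid-associated macrophage markers, 11 of 36 lysosomal genes and 7 of 15 Fc receptor and complement genes changed more in the high-score strains. In the strains whose arrays matched between diets, 8 against 5, no gene was called by limma (2129 with an unadjusted p under 0.05), and over all 24 strains 45 were called without the strain block.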

How the data were processed

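Per the labels' protocols, RNA of about 5 male mice of 1 strain and 1 diet was pooled, amplified and hybridized to 1 Affymetrix array. Affymetrix Expression Console and RMA are named in the submitters' processing notes, without versions. The values the authors deposited are a score: each array had a mean of 8 and an SD of 2 over 65770 features, so log-scale values were rescaled per array at a step not given in the sources used here. Precision is limited by how many arrays there are. The annotated table and the series' value table did not differ (0 values). Of the features, 26355 have no symbol and were not used. Each symbol was represented by its feature of highest mean (444 symbols had several), giving 38827 genes, and low values were not filtered. Of the symbols, 32403 were found in the RefSeq table of GRCm38.p6, used for names and promoters only.

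The 4 score genes were left out and 38823 genes were tested with limma 3.58.1 in R 4.3.3 (24 high fat arrays; the threshold was a Benjamini-Hochberg adjusted p of 0.05), and the code was tested on simulated data: of 100 genes changed by 0.5 units 90% were recovered and of 100 changed by 1 unit 93%, with 11 false calls. The chow arrays of the same 24 strains were tested likewise, and the change between diets with the strain as a block. The simulated noise was independent between genes, and the simulated classes were not chosen on levels. Its recovery and false calls therefore check the code and not the error of the comparison. Pairing comes from the strain label, and 16 of 38 labels did not match between diets. Single values used permutation tests (100000 resamples, or exact under 10 values a group), in Python 3.11.15 with SciPy 1.17.1. No hybridization batch is given. The classes, the 38 gene lists (801 of 807 members matched) and the tests were chosen with earlier results of these data known, and classes were made from measured levels.

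Genes named were the 15 largest differences in each direction past the threshold, with predicted and clone models (19844 symbols) left out, a fixed set of 19 genes, the 3 largest members of each list with at least 3 called, and the 5 largest in each direction for the diet change. One gene that this rule names is not reported here. The design had allowed for log2 values, but since the unit is a score, differences of 0.5 units replaced a fold change. Alternatives varied the class size, the score, the normalization, the filter, covariates and the arrays used.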

Additional observations from a re-analysis of the deposited data

Results flagged for a closer look

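The change from chow to high fat differed between the high-score and the low-score strains for 305 genes by limma's test of that difference. The classes were chosen on the high fat arrays that enter this change, and strain labels that did not match between diets enter it too, so these values describe the same arrays again. Among named genes the change was more positive in the high-score strains for Tm4sf19 (1.807 units), Tlr13 (1.471), Clec7a (1.374), C3ar1 (1.369) and Dhrs9 (1.364). It was more negative for the mitochondrial tRNAs mt-Ta (-1.111 units), mt-Ts2 (-0.968), mt-Tn (-0.801) and mt-Tp (-0.745). The limma adjusted p-values of these 9 genes lay between 0.00205 and 0.0484, and none of the 9 passed in the 8 high-score and 5 low-score strains whose arrays matched.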

How the results depend on the processing

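Of the high fat comparison (1754 higher and 790 lower), the 8 highest against the 8 lowest arrays gave 1108 and 446, 19 against 19 gave 749 and 29, Lep as a covariate 1168 and 375, and the mitochondrial tRNA covariate 319 and 35. The lower genes also moved by over 1.5 times, while the higher ones moved by less, with 1224 lower with the muscle, lymph node and epithelial means as covariates, 1336 with robust regression, 1293 without the parents and 424 without BXD61 and BXD63. The cause of these shifts was not tested. Leaving out 1 array at a time gave 1422 to 1944 higher and 543 to 1149 lower. For the diet change (295 and 10), the fit without the replicate block (strain) gave 45 and 0, 8 against 8 strains 94 and 2, quantile normalization 246 and 6, without BXD61 and BXD63 164 and 19, and matched strains 0 and 0. Leaving out 1 strain gave 182 to 426 and 2 to 29, with totals of 186 without BXD43, 184 without BXD55, 190 without BXD71 and 196 without BXD84. On chow 0 genes were called under every alternative, and the chow score differed by 0.025 to 0.483 under other class sizes, normalization or strain sets and by 0.202 to 0.508 without single strains. Signs turned for mt-Tt with the tRNA covariate (0.061), Pparg with Lep (-0.001) and Fasn with 8 arrays a class (0.060) or without BXD61 (0.012).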

Other observations

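Features whose symbol starts with Rpl or Rps and a digit, grouped after their values were seen, leaned lower in the high-score arrays. Such symbols are not limited to ribosomal protein genes, since S6 kinases and pseudogene models can carry them too. Of these 300 features 43 were lower and none higher, with a median of -0.083 units. The mean of the 300 was 10.789 to 11.093 in the high-score arrays and 10.89 to 11.159 in the low-score arrays. Of 921 microRNA loci, 20 were higher and 5 lower, with a median of -0.011, against 4.52% higher and 2.03% lower of all genes.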
